A study of Mus musculus with 32 samples.

Results

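Arc, the activity-regulated cytoskeleton-associated protein gene, was followed across soma and neurite fractions of mouse hippocampal neurons. It was found by its symbol and is 1 of the 55573 genes in the count table, with the identifier ENSMUSG00000022602. Neurons of newborn mice were cultured for 15 days on a microporous membrane, and RNA was scraped from the upper face (soma) and from the lower face (neurites). The upper face can also hold neurites that did not cross, so the soma fraction is not free of them. Gene expression was measured by RNA-seq in 16 libraries, 2 in each of 8 groups, and m6A by DART-seq in 16 further libraries.

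The WT groups were C57BL/6 neurons and the Mettl3 KO groups were neurons of the Mettl3Flox/Flox strain with the genotype Mettl3-/-. Both received an AAV carrying Cre-P2A-dTomato at day 7 in culture, so the WT neurons expressed Cre as well. Cre was driven by the human synapsin promoter, which acts in neurons, and glial cells in the culture would keep Mettl3. All groups were silenced for 16 h with 1 µM tetrodotoxin, which blocks sodium channels, and 50 µM D-AP5, which blocks NMDA receptors. The Ctrl groups stayed silenced, and the KCl groups were depolarized with 55 mM KCl for 2 h before RNA extraction. Each culture pooled the pups of a litter, and duplicates came from different litters. Per the authors' methods, Ctrl and KCl neurons were taken from the same litter. Genotype, strain and litter cannot be told apart in the comparisons of Mettl3 KO with WT. In these bulk samples, fewer cells of a type and less RNA per cell cannot be told apart either.

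Arc is an immediate early gene, which means that its transcription starts within minutes of synaptic activity and does not need new protein synthesis. Its mRNA is known to enter dendrites and to be translated there, and its protein promotes the endocytosis of AMPA receptors at synapses that have been active. The protein descends from a retrotransposon Gag protein and can form capsid-like particles. Arc mRNA also has introns behind its stop codon, and it is a known natural target of nonsense-mediated decay, the pathway that degrades an mRNA when an exon junction complex remains downstream of the stop codon. Mettl3 is the catalytic subunit of the enzyme that deposits m6A on mRNA.

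The gene lies on chromosome 15 of mouse build GRCm38 (mm10), at 74669083 to 74672570 on the minus strand. The annotated mRNA has 3055 bases in 3 exons. Exon 1 (74670565 to 74672568) holds the 5′UTR of 196 bases, the whole coding sequence of 1191 bases for 396 amino acids, and the start of the 3′UTR. Exon 2 (74670180 to 74670319) and exon 3 (74669083 to 74669993) are 3′UTR throughout, and the 3′UTR is 1668 bases long. Both introns fall behind the stop codon, with exon junctions 617 and 757 bases downstream of it. Of 21674 protein-coding genes in the GENCODE M21 annotation, 16 (0.0738%) have 2 or more introns more than 50 bases behind the stop codon. No other annotated gene overlaps Arc on either strand, so reads counted for Arc without strand information have no annotated antisense partner.

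The RNA-seq libraries held between 33789183 and 71394235 fragments counted to genes. All 10 neuron markers were above 1 CPM in every group, and no marker of the other cell types was at 0 in any group. CPM is a count scaled to a common library size by the TMM method. Cell type markers and nuclear-retained RNAs were scaled by total counts instead. Of the Mettl3 KO libraries, 3 stood apart. The median Pearson r of a library's log2 CPM with the other 15 was 0.750 for the Mettl3 KO neurite KCl library 1, 0.817 for the soma KCl library 1 and 0.842 for the soma Ctrl library 2, against 0.916 to 0.951 for the rest. The summed CPM of 7 nuclear-retained RNAs was higher in soma than in neurites in every pair except the second Mettl3 KO Ctrl pair, where it was 4496 in soma and 6052 in neurites, against the fraction labels. Mettl3, the targeted gene, was at 13.5 to 16.7 CPM in the 4 WT soma libraries and at 6.18 to 11.0 CPM in the 4 Mettl3 KO soma libraries. In neurites it was at 9.05 to 12.5 CPM in WT and at 3.91 to 8.24 CPM in Mettl3 KO. The ranges did not overlap in either fraction, but the difference did not pass edgeR's quasi-likelihood test in any of the 4 comparisons (adjusted p from 0.273 to 0.625). These are counts over all exons of Mettl3, which check a deletion of part of the gene only in part.

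Arc went from a low level in silenced neurons to one of the highest mRNA levels in the culture after 2 h of KCl. In WT soma it was at 12.7 and 13.3 CPM in the Ctrl libraries and at 1423 and 2499.9 CPM in the KCl libraries. In WT neurites it was at 17.5 and 20.1 CPM in Ctrl and at 1491 and 2357 CPM in KCl. Every KCl library was far above every Ctrl library of its fraction. The lowest KCl value was 107-fold the highest Ctrl value in soma and 74.2-fold in neurites.

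**Figure D1:**
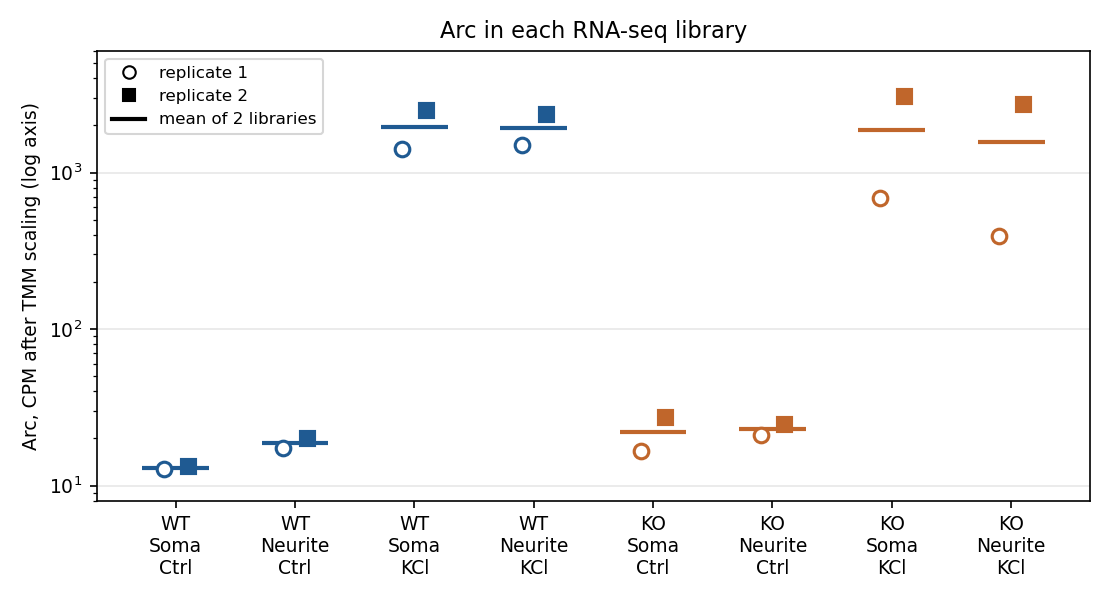
Arc level in TMM-scaled CPM (log axis) in each of the 16 RNA-seq libraries, by genotype, fraction and treatment, with circles for replicate 1, squares for replicate 2 and a line at the group mean. All 8 KCl libraries lie above all 8 Ctrl libraries, and the replicates of Mettl3 KO KCl lie farthest apart, at 692 and 3063 CPM in soma and at 392 and 2739 CPM in neurites.

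The levels rest on these fragment counts. WT soma Ctrl held 1030 and 861 Arc fragments, and WT soma KCl held 74960 and 171953. WT neurite Ctrl held 937 and 668, and WT neurite KCl held 61503 and 114381. On the scale of FPKM, CPM divided by the exon length in kilobases, which allows genes to be compared by length, the mean level of Arc in WT soma was 4.25 in Ctrl and 642 in KCl. Its rank among 23335 genes ordered by mean FPKM moved from 8438 to 49. In WT neurites the mean was 6.14 FPKM in Ctrl and 629 FPKM in KCl, and the rank moved from 7080 to 78.

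The order of the 8 group means of Arc, from lowest to highest, was WT soma Ctrl (13.01 ± 0.387 CPM, SD, n = 2), WT neurite Ctrl (18.8 ± 1.85), Mettl3 KO soma Ctrl (21.9 ± 7.57), Mettl3 KO neurite Ctrl (22.9 ± 2.44), Mettl3 KO neurite KCl (1565 ± 1659), Mettl3 KO soma KCl (1878 ± 1676), WT neurite KCl (1924 ± 612) and WT soma KCl (1961 ± 762). The ranges of WT soma Ctrl and WT neurite Ctrl did not overlap. From WT neurite Ctrl upward, each Ctrl group overlapped its neighbour, and so did each of the 4 KCl groups. Between the Ctrl and the KCl groups there was a gap, from 27.3 CPM in the highest Ctrl library to 392 CPM in the lowest KCl library.

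The KCl response of Arc passed the test in both WT fractions. In WT soma it rose by 7.16 on the log2 scale (SE 0.33, 95% interval 6.43 to 7.90), or 143-fold in the fit, with an adjusted p of 4.51e-07 by edgeR's quasi-likelihood test. In WT neurites it rose by 6.71 (SE 0.33, 95% interval 5.99 to 7.43), or 105-fold, with an adjusted p of 7.73e-07. At 2-fold or more and an adjusted p of at most 0.05, 6.81% of the 23200 genes tested were called in WT soma and 4.94% in WT neurites. Genes called higher made up 3.80% and 3.24%. In soma, 7 of all genes tested had a larger log2 response than Arc, and in neurites 16 did.

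**Figure D2:**
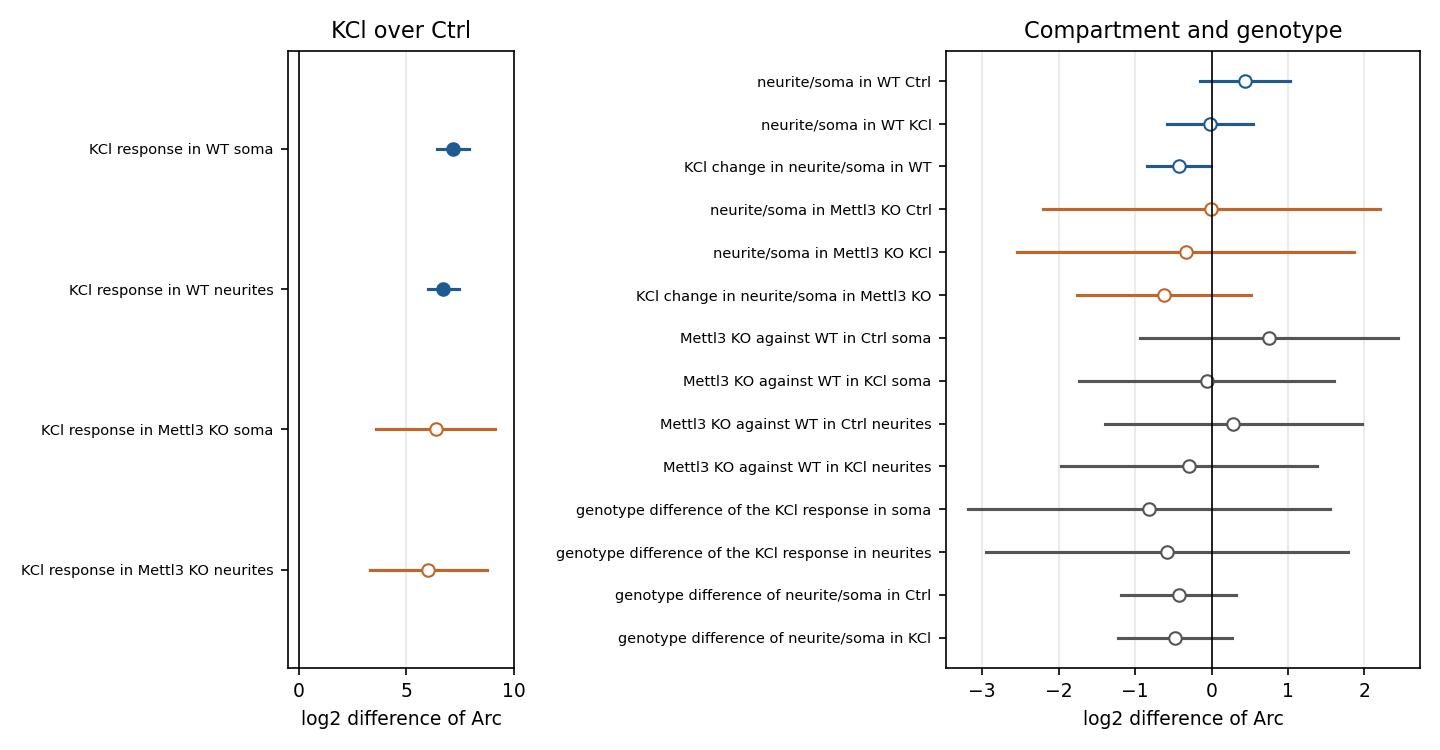
Log2 difference of Arc with its 95% interval in each comparison, blue for WT, orange for Mettl3 KO and grey for comparisons of the genotypes, with filled points for those that passed the test. Only the KCl responses in WT soma (7.16) and WT neurites (6.71) are filled, and each interval of Mettl3 KO is wider than that of WT in the same comparison.

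Other activity-induced early genes moved with Arc in WT. Fos, a subunit of the AP-1 transcription factor, rose by 7.80 on the log2 scale in soma (adjusted p 2.20e-09), from a mean of 12.7 to 2977 CPM. Npas4, a neuronal transcription factor that responds to calcium entry, rose by 7.94 (adjusted p 2.38e-07), from 4.87 to 1258 CPM. Egr1, a zinc finger transcription factor, rose by 5.04 (adjusted p 2.26e-07), and Homer1, a postsynaptic scaffold gene whose short isoform is induced by activity, rose by 2.77 (adjusted p 4.34e-05). In neurites the log2 responses were 6.63 for Fos, 7.06 for Npas4, 4.83 for Egr1 and 2.16 for Homer1, each called by edgeR.

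A list of 30 such early genes gave the wider picture. In WT soma 27 of the 30 were called higher and none lower, with a median log2 response of 3.69, against 0.008 over all genes tested. In WT neurites 29 were called higher and none lower, with a median of 3.87, against 0.009. The log2 response of 5 members was larger than that of Arc in soma, and these were Fosb (8.17), Npas4, Fos, Nr4a1 (7.61) and Nr4a2 (7.23), of which Fosb is a relative of Fos and Nr4a1 and Nr4a2 are orphan nuclear receptors. In neurites Fosb (7.50), Npas4 and Nr4a1 (6.87) were above Arc. With all 16 libraries in a single fit, 22 members were called higher in soma and 19 in neurites. Gadd45g, a stress-response gene linked to DNA demethylation, had one of the 3 smallest p-values of the list in soma and rose by 5.22. The members not called in soma were Ier5 (0.87), Rheb (0.74) and Klf10 (−0.98), and only Klf10 (−0.42) was not called in neurites.

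Arc was not called as enriched in neurites over soma in WT under either treatment. The 2 fractions are compared here by their TMM-scaled levels. A value of 1 means the same scaled level, which need not be the same share of the counted RNA. In Ctrl, neurites over soma was 1.37 for the pair of libraries numbered 1 and 1.51 for the pair numbered 2, both above 1. In KCl the values were 1.05 and 0.943, on either side of 1. The labels do not state that libraries with the same number are pairs. In KCl, soma was at 1423 and 2499.9 CPM and neurites at 1491 and 2357 CPM. Paired the other way, the KCl ratios would lie farther from 1. Scaled by total counts, Arc in WT Ctrl was at 16.4 and 17.5 CPM in neurites and 14.4 and 15.1 CPM in soma. In WT KCl it was at 1295 and 2052 CPM in neurites, below the 1378 and 2446 CPM of soma in each pair. The fitted log2 enrichment was 0.44 in Ctrl (SE 0.26, 95% interval −0.15 to 1.02, adjusted p 0.268 by edgeR) and −0.018 in KCl (95% interval −0.58 to 0.54, adjusted p 0.975). Over 8 alternative fits the value in Ctrl stayed between 0.41 and 0.53 and under the 1.5-fold threshold, while its adjusted p ran from 0.00359 with no filter on low counts to 0.934 with all 16 libraries. It was 0.0228 with only the 4 libraries of the comparison. At 1.5-fold or more and an adjusted p of at most 0.05, 13.5% of genes were called in Ctrl, 8.99% of genes higher in neurites, and 9.54% in KCl, 6.84% higher.

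The dendritic mRNAs used for comparison were clearly higher in neurites. Camk2a, which encodes the alpha subunit of the calcium/calmodulin-dependent kinase II, had ratios of neurites over soma of 4.24 and 4.63 in WT Ctrl, and its log2 enrichment was 2.06 in Ctrl and 1.77 in KCl. Map2, a microtubule-associated protein of dendrites, had ratios of 3.09 and 3.99 in Ctrl and log2 enrichments of 1.73 and 1.34. Shank1, a scaffold of the postsynaptic density, had ratios of 3.75 and 5.20 in Ctrl and log2 enrichments of 2.05 and 1.94. All 6 values were called, and the upper limit of the interval for Arc was below each of them under the same treatment. Actb, the cytoskeletal beta-actin mRNA, was at 0.995 and 0.929 in Ctrl, and its log2 enrichments of −0.15 and 0.11 did not pass the test.

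**Figure D3:**
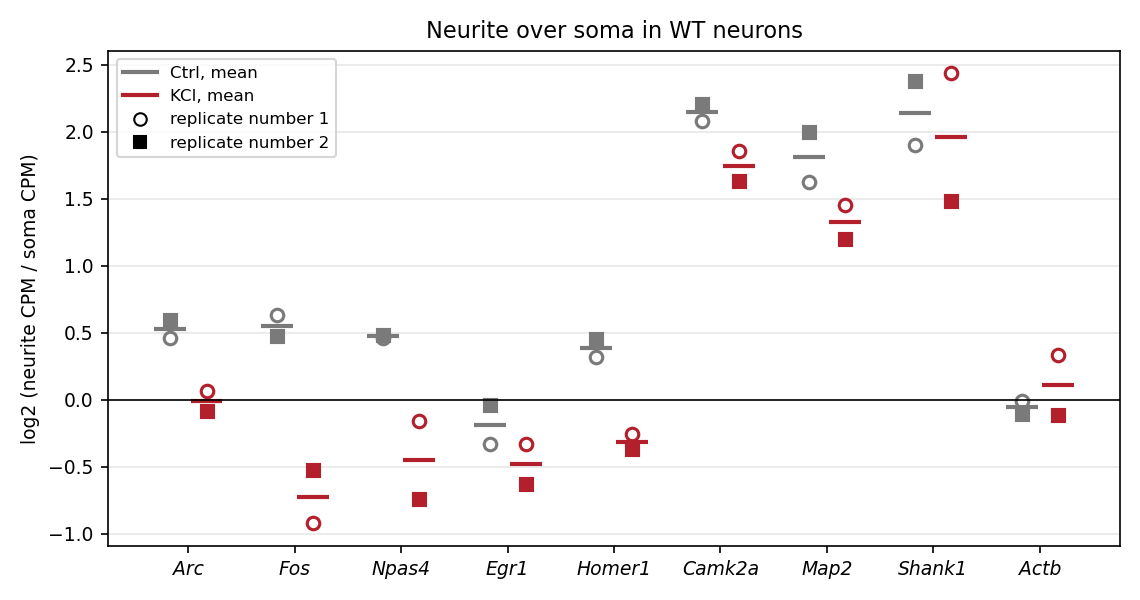
Log2 ratio of neurites over soma in WT for each pair of libraries with the same number, grey for Ctrl and red for KCl, with a line at the mean. Camk2a, Map2 and Shank1 lie well above 0 in every pair, whereas Arc, Fos, Npas4 and Homer1 lie above 0 in both Ctrl pairs and, apart from the first KCl pair of Arc at a ratio of 1.05, below 0 in KCl.

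Of 15 mRNAs known from dendrites, 13 were called higher in WT neurites in Ctrl, against 8.99% of all genes. In KCl 12 were called higher, against 6.84% of all genes, and none was called lower under either treatment. The median log2 enrichment of the 15 was 1.46 and 1.34, against −0.097 and −0.033 over all genes. Actb and Lingo1, a neuronal membrane protein, were not called under either treatment, and Eef1a1, a translation elongation factor, was not called in KCl (0.38). With all 16 libraries in a single fit, where the common biological coefficient of variation was 0.381 instead of 0.151, none of its members was called. None of the 15 passed the test for the KCl response, where 6.81% of all genes were called in WT soma and 4.94% in WT neurites. The median log2 responses of the 15 were −0.15 in soma and −0.14 in neurites. Arc shared the large KCl response of the early genes. Its log2 enrichment in Ctrl was under those of the 13 called members, and 5 of the 30 early genes were above it. In KCl all 15 dendritic mRNAs and 9 of the 30 early genes had a higher log2 enrichment than Arc.

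Few of the early genes were called between the fractions under either treatment. In WT Ctrl 2 of 30 were called higher in neurites, Egr2 (1.27) and Egr3 (0.64), both zinc finger transcription factors, and none lower, against 8.99% and 4.52% of all genes. The median log2 enrichment was 0.076, against −0.097 over all genes. In WT KCl none was called higher and 4 were called lower, against 6.84% and 2.70% of all genes. The median was −0.38, against −0.033 over all genes. The 4 were Fos (−0.71, adjusted p 0.00375), Atf3 (−1.18), a stress-induced transcription factor, Klf4 (−0.87), a zinc finger transcription factor, and Gadd45b (−1.02), a stress-response gene. That count was 1 without the first WT neurite KCl library and 9 without the first WT soma KCl library, and the count of 2 in Ctrl ranged from 1 to 3 without single Ctrl libraries. Arc, at −0.018, was higher than 21 of the 30 members in this comparison. The 5 members with a larger soma response than Arc had log2 enrichments of −0.71 (Fos), −0.54 (Fosb), −0.50 (Npas4), −0.50 (Nr4a1) and −0.38 (Nr4a2), all inside the 95% interval of Arc except that of Fos.

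**Figure D4:**
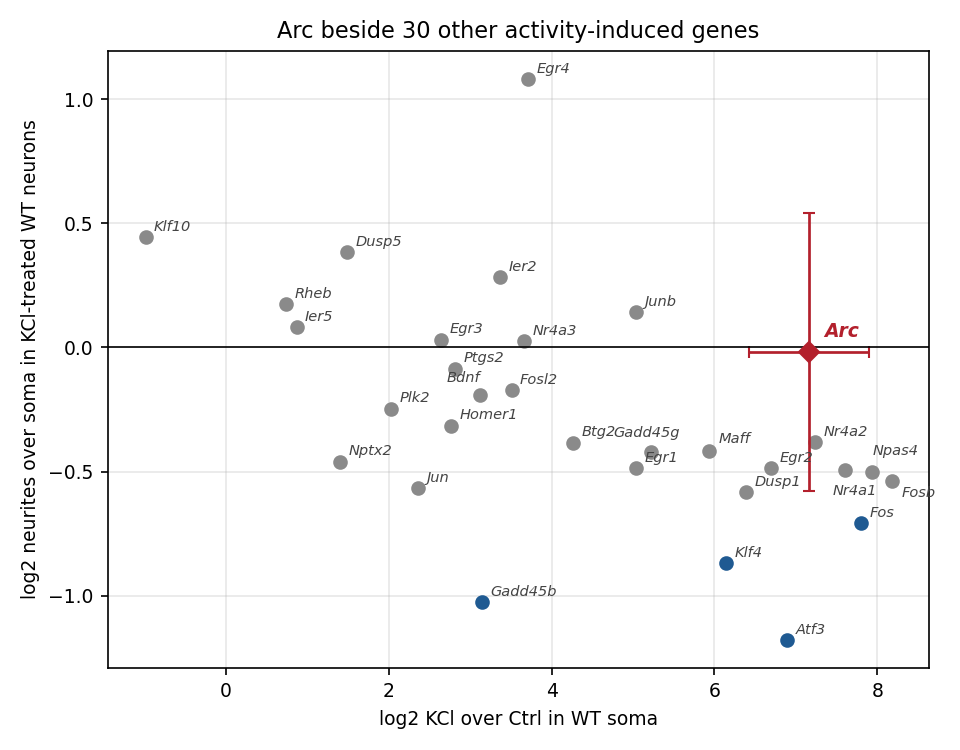
Log2 KCl response in WT soma (horizontal) against log2 enrichment in neurites over soma in WT KCl (vertical) for the 30 early genes and Arc, with blue for members called lower in neurites, grey for the others and a red diamond with 95% intervals for Arc. Arc (7.16 and −0.018) is among the genes with the largest response and lies above Fos, Fosb, Npas4, Nr4a1 and Nr4a2 on the vertical axis. The axes share the soma KCl libraries.

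The change of neurite enrichment with KCl was fitted with a term for each membrane insert, because the study paired the fractions of an insert. Libraries with the same number were taken as a pair, which the labels do not state. Within-group deviations of such pairs correlated at −0.133 in WT Ctrl and 0.033 in WT KCl. For Arc in WT the log2 change was −0.43 (SE 0.19, 95% interval −0.85 to −0.005), with an unadjusted p of 0.0479 and an adjusted p of 0.999 by edgeR. It was below the 1.5-fold threshold and was not called, and without the insert terms its unadjusted p was 0.240 by edgeR. At an unadjusted p by edgeR, 3.36% of all genes were called, 465 higher and 314 lower, and none at an adjusted p of at most 0.05. The counts were 343 and 447 with the median-ratio scaling of DESeq2. The study also used an unadjusted p for this comparison, but took it from Xtail, which was not run here. Fos fell by 1.17 (p 2.41e-04 by edgeR), Npas4 fell by 0.81 (p 0.00861) and Homer1 fell by 0.59 (p 0.00894). Egr1 changed by −0.18 (p 0.391) and was not called.

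Of the 30 early genes, 12 were called lower and 2 higher in this change of enrichment, where 1.35% of all genes were called lower and 2.00% higher. The median was −0.35, against 0.049 over all genes. The members that fell also included Egr2 (−1.75), Atf3 (−1.55), Klf4 (−1.08), Dusp1 (−0.87), a phosphatase of MAP kinases, and Gadd45b (−0.78). Those that rose were Dusp5 (0.78), another MAP kinase phosphatase, and Ptgs2 (1.09), which encodes cyclooxygenase-2. The log2 changes of 16 members lay above that of Arc and 14 below. None of the 14 calls had an adjusted p of at most 0.05. With all 16 libraries in a single fit, 9 members were called lower and 0 higher. The comparators with dendritic mRNA were not called, at −0.29 for Camk2a, −0.37 for Map2 and −0.07 for Shank1, and neither was Actb at 0.28.

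In Mettl3 KO neurons Arc was also far higher after KCl, but with a wide spread between the replicates. In soma it was at 16.6 and 27.3 CPM in Ctrl and at 692 and 3063 CPM in KCl. In neurites it was at 21.1 and 24.6 CPM in Ctrl and at 392 and 2739 CPM in KCl. Each KCl value was above each Ctrl value of its fraction, by at least 25.4-fold in soma and at least 15.9-fold in neurites. The replicates of KCl lay 2.15 apart on the log2 scale in soma and 2.81 in neurites, against 0.81 and 0.66 in WT.

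The fitted log2 KCl responses of Arc in Mettl3 KO were 6.35 in soma (SE 1.20, 95% interval 3.57 to 9.13, p 7.71e-04, adjusted p 0.371 by edgeR) and 6.02 in neurites (SE 1.18, 95% interval 3.28 to 8.76, p 9.83e-04, adjusted p 0.389). Neither was called. No gene of 23099 was called in these comparisons by edgeR (0%), although 1432 in soma and 1413 in neurites had an unadjusted p of at most 0.05 and a 2-fold change. DESeq2 called 268 genes in soma and 249 in neurites, Arc among them, and limma called 2 and 3. Without both KCl libraries numbered 1, edgeR called Arc at 7.07 in soma (adjusted p 0.0324) and at 6.92 in neurites (adjusted p 0.0433). The median log2 response of the 30 early genes in Mettl3 KO was 4.01 in soma and 3.19 in neurites, with none of them called.

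The Mettl3 KO KCl libraries with the lowest Arc level also differed in their cell type markers, scaled here by total counts. The summed CPM of 8 oligodendrocyte lineage markers was 4264 in the first soma KCl library and 7483 in the first neurite KCl library, against 86.6 and 87.1 in the second ones and 58.0 to 109 over the WT libraries. That of 9 astrocyte markers was 11068 and 19049, against 2394 and 2335, and 1166 to 2611 in WT. That of 10 neuron markers was 2224 and 1995, against 4751 and 7236, and 5421 to 11022 in WT. Markers of microglia reached 470 CPM and those of fibroblasts and vascular cells 762 CPM in Mettl3 KO KCl, and 32.8 and 72.3 CPM at most in WT. The part of these differences in the Arc values was not tested.

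Neurite enrichment of Arc in Mettl3 KO could not be narrowed down. The ratio of neurites over soma was 1.27 and 0.900 in the Ctrl pairs and 0.566 and 0.894 in the KCl pairs. The Ctrl ratio of 0.900 comes from the second pair, whose nuclear-retained RNAs went against its fraction labels. The fitted log2 enrichment was −0.003 in Ctrl (95% interval −2.21 to 2.20) and −0.34 in KCl (95% interval −2.54 to 1.87, p 0.733 by edgeR). Without the library labelled soma of that pair the Ctrl value was 0.46. No gene was called in either comparison by edgeR, with 1214 and 146 genes at an unadjusted p of at most 0.05 and a 1.5-fold change, and DESeq2 called 13 and 0 and limma 0 and 0. The change of enrichment with KCl was −0.62 (95% interval −1.76 to 0.52, p 0.241), where 2.23% of genes were called. The 15 dendritic mRNAs had median log2 enrichments of 1.02 in Ctrl and 0.71 in KCl, none called.

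A difference of Arc between Mettl3 KO and WT was not detectable at this spread. In soma the log2 difference of Mettl3 KO from WT was 0.76 in Ctrl (95% interval −0.93 to 2.44, adjusted p 0.823 by edgeR) and −0.06 in KCl (−1.73 to 1.61, adjusted p 0.979). In neurites it was 0.28 in Ctrl (−1.40 to 1.96, adjusted p 0.989) and −0.30 in KCl (−1.97 to 1.37, adjusted p 0.844). Of all genes 0.189% and 0.227% were called in soma, and 0.171% and 0.433% in neurites. Without the second Mettl3 KO soma Ctrl library the difference in soma Ctrl was 0.31. In Ctrl soma, Arc was at 16.6 and 27.3 CPM in Mettl3 KO and at 12.7 and 13.3 CPM in WT. In Ctrl neurites it was at 21.1 and 24.6 CPM in Mettl3 KO and at 17.5 and 20.1 CPM in WT. The share of all genes whose ranges are separate in this way was not counted, so the separation is not a result about Arc. In KCl the Mettl3 KO values lay on both sides of the WT values in both fractions.

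The test of the difference between the genotypes also left Arc uncalled. The KCl response in Mettl3 KO differed from that in WT by −0.82 on the log2 scale in soma (95% interval −3.19 to 1.55, adjusted p 0.991 by edgeR) and by −0.58 in neurites (−2.95 to 1.79, adjusted p 0.927). No gene was called in these comparisons by edgeR, with 468 and 1003 genes at an unadjusted p of at most 0.05 and a 1.5-fold difference, and DESeq2 called 2 and 0 and limma 0 and 0. The neurite enrichment of Arc in Mettl3 KO differed from that in WT by −0.43 in Ctrl (−1.18 to 0.32, unadjusted p 0.227) and by −0.48 in KCl (−1.23 to 0.26, unadjusted p 0.175), where 4.29% and 1.85% of genes were called. These intervals allow a lower as well as a higher enrichment in Mettl3 KO. A difference in the KCl response of several fold in either direction would also lie within them.

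The genes that switch Arc on were also followed through the KCl response. Of 21 transcription factors, coactivators, kinases and receptors known to induce Arc, 1 was called higher and 1 lower after KCl in WT soma, with a median of −0.11. Over all genes 3.80% were called higher and 3.01% lower in soma, and 3.24% and 1.70% in neurites. Srf, the serum response factor that binds upstream of Arc, rose by 1.56 (adjusted p 0.00874 by edgeR), and Elk1, its cofactor, fell by 1.18 (adjusted p 0.00270). The call of Srf was lost without either soma Ctrl library or the second soma KCl library, and the count of members called lower was 0 without the first soma KCl library and 4 without the second. In neurites Srf rose by 1.35, and no other member was called, and this call was lost without either neurite Ctrl library or the first neurite KCl library. Crtc2, a coactivator of CREB, was at −0.88 in soma and under the 2-fold threshold. Between the fractions in Ctrl, Crtc1 (1.56), a CREB coactivator that shuttles from synapse to nucleus, and Mef2d (0.65), a transcription factor, were higher in neurites, and Crtc2 (−0.73) and Grin1 (−0.67), an NMDA receptor subunit, were lower. In KCl, Crtc1 (1.54) and Mapk3 (0.67), a MAP kinase, were higher and Grin1 (−0.70) lower. Over all genes 8.99% were called higher and 4.52% lower in Ctrl, and 6.84% and 2.70% in KCl. The change of enrichment was called higher for 2.00% of all genes. The counts of 2 higher and 2 lower in Ctrl ranged from 1 to 2 and from 0 to 2 without single Ctrl libraries, with 0 lower without the second soma Ctrl library. Those of 2 and 1 in KCl ranged from 1 (without the first neurite library) to 6 (without the second soma library) and from 0 to 2. The change of enrichment with KCl was called higher for 2 of the 21, Crtc2 (0.63) among them, and this count was 1 without the second neurite Ctrl library, 6 without either second KCl library and 0 without any of the other 5 WT libraries.

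The mRNAs of proteins that act with Arc protein were counted next. Of 20 genes for endocytosis of AMPA receptors, binding partners and ubiquitin ligases, none was called for the KCl response in either WT fraction. Over all genes 6.81% were called in WT soma and 4.94% in WT neurites. The medians of the list were −0.08 in soma and −0.04 in neurites. The smallest p-values of this list in soma were those of Wasf1 (−0.87), an actin regulator that binds Arc, Ube3a (−0.55), a ubiquitin ligase, and Gria2 (0.32), an AMPA receptor subunit. In neurites over soma, Dlg4, the scaffold PSD-95, was called higher in Ctrl (0.95) and in KCl (1.25), and Wasf1 in KCl (0.93). The change of enrichment with KCl was called higher for Wasf1 (0.99). Over all genes 8.99% were called higher in neurites in Ctrl, 6.84% in KCl and 2.00% for the change. The count of 1 in Ctrl was 0 without either the second soma or the second neurite library, that of 2 in KCl was 1 without either neurite library and 5 without the second soma library, and that of the change was 4 without either second KCl library.

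The carriers of dendritic RNA were described in the same way. Of 16 RNA-binding proteins and motors of dendritic RNA granules, none was called for the KCl response in WT soma or neurites. Over all genes 6.81% were called in soma and 4.94% in neurites. The medians of the list were 0.10 in each. Cpeb1 (0.72), which binds elements of 3′UTRs that govern polyadenylation, Hnrnpa2b1 (0.62), which binds trafficking signals in mRNA, and Fxr2 (−0.59), a relative of the fragile X protein, had the smallest p-values in soma. The kinesin heavy chain mRNAs Kif5a (1.89), Kif5b (1.72) and Kif5c (1.58) and Purb (1.04), a nucleic acid binding protein, were called higher in neurites in Ctrl. The same 3 kinesins were called higher in KCl, at 1.75, 1.32 and 1.27, where Cpeb1 (−0.70) was called lower. Over all genes 8.99% were called higher in Ctrl, and 6.84% higher and 2.70% lower in KCl. The count of 3 higher was 5 without the first soma KCl library, and the call of Cpeb1 was lost without either neurite KCl library.

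The exon junction complex and nonsense-mediated decay genes act on Arc mRNA through its introns behind the stop codon. Of 15 such genes, 1 was called for the KCl response in each WT fraction. Over all genes 6.81% were called for it in soma and 4.94% in neurites. Magoh, a core subunit of the complex, rose by 1.01 in soma (adjusted p 0.00161 by edgeR), from 17.6 to 37.3 CPM. Its near-identical copy Magohb fell by 1.26 in neurites, from 4.49 to 1.84 CPM, and was at −0.98 in soma. Reads could be shared between these copies, so both values are uncertain. Eif4a3 (0.37), the anchoring helicase of the complex, was not called in soma. In Ctrl neurites over soma, 4 of the 15 were called lower, Magoh (−0.59), Smg1 (−0.66), Smg8 (−0.77) and Smg9 (−0.61), where the Smg genes encode the kinase complex of the decay pathway, and in KCl Magoh (−0.61) was called lower. Over all genes 4.52% were called lower in Ctrl and 2.70% in KCl. The count of 4 was 0 without either soma Ctrl library and 1 without the second neurite Ctrl library, and that of 1 in KCl was 0 without the first neurite library. The KCl response of Magoh in soma was not called without the second soma KCl library, nor that of Magohb in neurites without the first neurite Ctrl or the second neurite KCl library. The medians of the list were −0.07 and 0.20 for the KCl response and −0.21 and −0.13 for neurites over soma.

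Genes derived from a retroviral Gag protein, as Arc is, were also counted. Of 18 such genes 15 were tested. Peg10, an imprinted gene whose protein forms particles, rose by 3.17 on the log2 scale in WT soma (adjusted p 3.44e-05 by edgeR), from 5.84 to 55.2 CPM, and by 3.20 in neurites, from 5.33 to 47.7 CPM. Rtl1, another imprinted gene, rose by 1.64 in neurites, from 2.01 to 6.07 CPM, and was at 0.70 in soma, where it was not called. Its enrichment in neurites was −1.51 in Ctrl, and the change of enrichment with KCl was 0.97, both called. For the change, the count of 1 was 0 without the first library of any WT group and 3 without either second KCl library. Zcchc12, which encodes a zinc finger transcriptional coactivator, was at 0.42 in soma. The remaining 13 tested members were not called in either fraction, and the medians of the list were 0.16 in soma and 0.13 in neurites. Over all genes 3.80% were called higher after KCl in soma and 3.24% in neurites. For neurites over soma in Ctrl 4.52% were called lower, and for its change with KCl 2.00% higher.

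Genes whose pattern over the libraries was most like that of Arc were ranked by Pearson's r of log2 CPM. Over all 16 libraries and 15169 genes whose mean count was 100 or more, these were Fosb (0.994), Npas4 (0.993), Btg2 (0.992), an antiproliferative early gene, Junb (0.992), an AP-1 subunit, and Mir212 (0.992), a microRNA gene. In all, 70 genes had an r over 0.95. Over the 8 WT libraries they were Npas4 (0.999), Maff (0.998), a small basic leucine zipper factor, Nr4a2 (0.998), Usp37 (0.997), a deubiquitinase, and Siah2 (0.997), a ubiquitin ligase, with 305 genes over 0.95. Ctrl and KCl libraries form 2 clusters, and r within a cluster was not computed. Ranked by Spearman's rho, 1 of the first 5 genes was shared over the 16 libraries and none over the WT libraries.

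Arc mRNA carried called m6A sites in its 3′UTR. In DART-seq, RNA is incubated with a fusion of the cytidine deaminase APOBEC1 and the m6A-binding YTH domain, so that a C next to m6A is read as U. The authors' site list held 4 sites in Arc, each with a C-to-U fraction averaged over libraries, without replicates or read depth. The Mettl3 KO libraries served as the control for calling, so WT above Mettl3 KO is built into every site. The sites are shown with 12 bases on each side, because they are the evidence that Arc mRNA was edited. They are written 5′ to 3′ on the transcript strand (GRCm38, chromosome 15, minus strand), with T for U, and the motif that ends in the edited C is in capitals.
Site 1, chr15:74669626-74669650: ttggctccccGACcagacccttgca
Site 2, chr15:74669531-74669555: agtcccaggaGACcccaggccttgg
Site 3, chr15:74669489-74669513: gaacctccctGACctgcctggtgat
Site 4, chr15:74669351-74669375: ggtgttctgaGACcaattccactga

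All 4 sites read GAC, and the sites kept by the authors had to lie in AAC or GAC. The wider m6A consensus DRACH asks for A, G or T before that motif and for A, C or T behind it. Sites 2, 3 and 4 have it, and site 1, with a C before the motif, has not. Site 4 was edited most, at 3.60%, and sites 1, 2 and 3 were at 1.02%, 1.11% and 1.04%. Over all 18231 sites of the list the median was 3.54%, and 50.7% of sites were at or below site 4. The other 3 sites were among the least edited, with 6.80%, 8.13% and 7.17% of all sites at or below them.

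The 4 sites lay in exon 3, behind both exon junctions. The edited bases were 1113, 1208, 1250 and 1388 bases behind the stop codon, and 555, 460, 418 and 280 bases from the end of the transcript. They were 95, 42 and 138 bases apart. The mRNA holds 76 AAC or GAC motifs on the transcript strand, of which 57 fit DRACH. Of these 76, 3 are in the 5′UTR, 31 in the coding sequence and 42 in the 3′UTR. The 3′UTR motifs are split into 22 in exon 1, 2 in exon 2 and 18 in exon 3, and 4 of the 18 (22.2%) were called. A motif without a called site may have lacked coverage or editing, and read depth was not given.

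**Figure D5:**
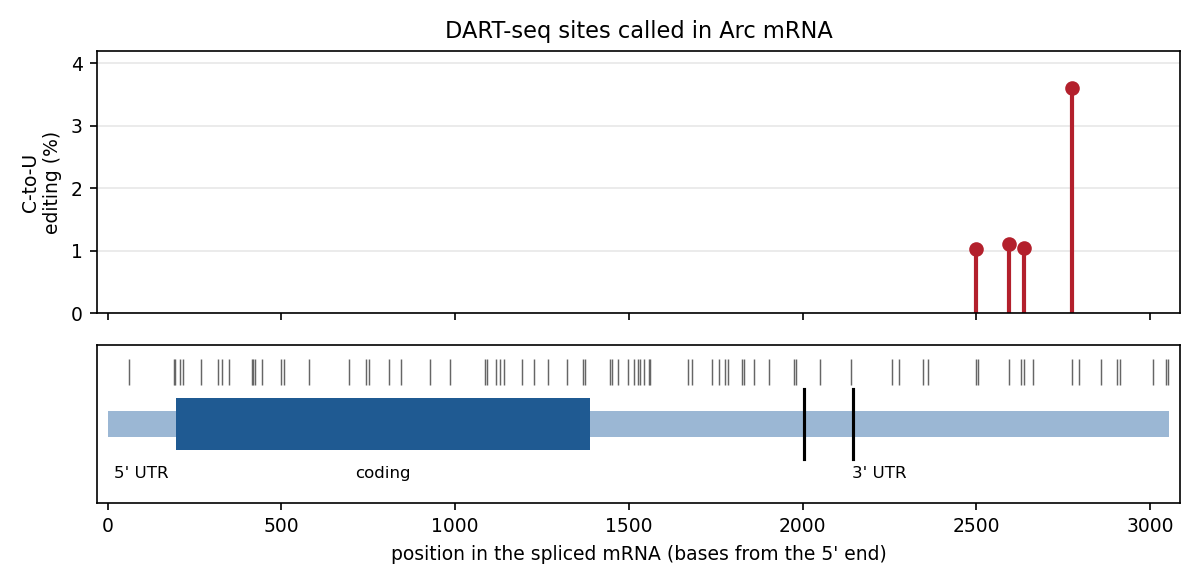
C-to-U editing in percent at the 4 called sites (upper panel) above a map of the Arc mRNA (lower panel), by position in bases from the 5′ end, with 5′UTR, coding sequence and 3′UTR drawn to scale, black lines for the 2 exon junctions and grey ticks for the 76 AAC or GAC motifs. The 4 sites lie together in the last exon, between positions 2500 and 2775, and the one nearest the transcript end is the highest at 3.60%.

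The authors also summed the C-to-U values of the called sites of each RNA into a score. Arc had 4 sites, and 32.7% of 5643 RNAs had at least as many. Its score was 6.73% in WT and 3.06% in Mettl3 KO, a ratio of 2.20. Over RNAs with a Mettl3 KO score above 0 the median ratio was 3.10, and 14.0% of RNAs were at or below the ratio of Arc. The WT score of Arc was below the median of 10.3%, with 33.9% of RNAs at or below it. Among the 550 RNAs that also had 4 sites the median was 15.7%, and 5.64% were at or below Arc. Per site, Arc was at 1.68%, against a median of 4.01% over all RNAs. The score was 5.89% in soma and 7.87% in neurites, a ratio of 1.34. The median ratio of RNAs was 1.33, and 49.5% of RNAs were at or above Arc.

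The same scores of the comparison genes place Arc between them. In WT, Fos had 1 site and a score of 2.04%, Egr1 had 1 site and 1.23%, and Btg2 had 3 sites and 4.42%. Homer1 had 5 sites and 12.5%, Fosb 7 sites and 14.9%, and Npas4 7 sites and 18.3%. The dendritic mRNAs reached 10.03% with 6 sites for Camk2a, 22.7% with 7 sites for Shank1 and 71.2% with 16 sites for Map2, and Actb had 1 site and 0.595%. By this sum over sites, Arc was above Fos, Egr1, Btg2 and Actb and below the rest of these genes. Per site the order differed, with Arc at 1.68% below Fos at 2.04% and next to Camk2a at 1.67%. Egr1 (1.23%), Btg2 (1.47%) and Actb (0.595%) were also below Arc per site, and the rest were above it. Ctrl and KCl libraries were averaged together in these values, and by group means Arc was 151-fold more abundant in KCl in WT soma and 102-fold in WT neurites, so the m6A of Arc before and after KCl cannot be told apart here.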

How the data were processed

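Hippocampal neuron cultures were fractionated into soma and neurites, and 50 ng of RNA per sample was used for a library. Per the authors' methods and notes, reads were trimmed with Flexbar, aligned to mm10 with STAR 2.7.7a in paired-end mode and counted per gene with featureCounts 2.0.1 from a kit that does not mark strand. The deposited table holds these raw counts, without mitochondrial genes. For DART-seq, 250 ng of APOBEC1-YTH protein was used, and the authors deposited, per site, a C-to-U fraction and, per RNA, a score summing these fractions. The authors' methods ask for AAC or GAC at a site, a minimum coverage in each sample and an excess over all Mettl3 KO libraries. Both tables pool Ctrl with KCl libraries, and their depth is unknown. The deposited neurite enrichment tables hold the authors' DESeq2 fold changes and p-values, which were not used.

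Groups were taken from the labels. Counts were scaled by TMM and tested with edgeR 4.0.16 (R 4.3.3), whose quasi-likelihood F-test was two-sided with p-values adjusted after Benjamini and Hochberg, over genes whose mean count was 10 or more. Comparisons within a genotype used its 8 libraries and comparisons between genotypes all 16. The KCl response, the enrichment within a treatment and the genotype comparisons of levels were fitted on group means, without terms for litter or insert. Changes and differences of neurite enrichment had 1 term per insert, taken as fraction pairs with the same treatment and replicate number. The labels do not tie numbers to inserts. Within-group deviations of soma and neurites with the same number correlated at −0.133 (WT Ctrl), 0.033 (WT KCl), 0.075 (Mettl3 KO Ctrl) and 0.897 (Mettl3 KO KCl). Fold thresholds were 2 for the KCl response and 1.5 otherwise, with an adjusted p of at most 0.05 (unadjusted for changes and differences of enrichment). Unless scaling by total counts is stated, CPM are TMM-scaled. Cell type markers and nuclear-retained RNAs were scaled by total counts. Correlations used log2 CPM with a prior count of 0.5. Steps were tested on simulated data. Replicates of every group differed beyond sampling noise.

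Alternatives were DESeq2 1.42.0, limma 3.58.1 (voom with sample weights), other scalings, filters and fits, a replicate block and leaving out libraries. The closing section gives their effect. Named genes were Arc, Mettl3, 8 comparison genes, the 5 genes most correlated with Arc and, from each list, the 3 smallest p-values in WT soma and members called where 5 or fewer were. List members beyond this rule are named for size or for not being called, and were chosen after their values were seen. Members and lists were written from general knowledge with earlier results of these data known. GENCODE M21 gave the gene model and the GRCm38 genome the sequences. The values of 1 list member are not reported here.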

Additional observations from a re-analysis of the deposited data

How the results depend on the processing

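The KCl response of Arc in WT kept its direction and its call in every alternative fit, at 7.09 to 7.24 in soma and 6.67 to 6.72 in neurites, and without each single library, at 6.68 to 7.54 and 6.36 to 6.99. Without single libraries, the log2 enrichment in WT neurites ranged from 0.34 to 0.54 in Ctrl and from −0.37 to 0.47 in KCl, and its change from −0.59 to −0.32. In Mettl3 KO the ranges were 4.90 to 7.13 (KCl response, soma), 3.86 to 6.90 (neurites), −0.24 to 0.46 (enrichment, Ctrl), −2.36 to 1.12 (KCl) and −1.01 to −0.26 (its change). Mettl3 KO against WT ranged from 0.31 to 1.13 (soma Ctrl), −1.50 to 0.65 (soma KCl), 0.19 to 0.39 (neurite Ctrl) and −2.30 to 0.52 (neurite KCl). The value of −2.30, without the second Mettl3 KO neurite KCl library, rests on library 1 alone for that group. Library 1 had the lowest median r with the other libraries (0.750) and oligodendrocyte lineage markers at 7483 CPM. Genotype differences ranged from −2.26 to −0.13 and −2.58 to 0.21 (KCl response, soma and neurites) and from −0.72 to −0.11 and −0.81 to −0.15 (enrichment, Ctrl and KCl). Uncalled values changed sign without 1 library: enrichment in WT KCl was 0.27 without WT neurite KCl library 1 and 0.47 without WT soma KCl library 2. In Mettl3 KO it was 0.21 and 0.46 in Ctrl without neurite library 1 or soma library 2, and 0.55 and 1.12 in KCl without the same libraries of KCl. Mettl3 KO against WT was 0.65 and 0.40 in soma KCl without Mettl3 KO library 1 or WT library 2, and 0.52 and 0.070 in neurite KCl likewise, and the genotype difference of the neurite KCl response was 0.21 without Mettl3 KO neurite KCl library 1. The KCl response in Mettl3 KO was called by DESeq2 (6.39 in soma, 6.04 in neurites), with no filter (6.37 and 6.00), with all 16 libraries (6.42 and 6.10), without both KCl libraries numbered 1 (7.07 and 6.92) and without all 3 libraries that stood apart (7.53 and 6.92), the last pair of settings chosen after seeing the data. Values near 0 changed sign: enrichment in WT KCl with limma (0.029), a replicate block (0.0089) and only its 4 libraries (0.0089); enrichment in Mettl3 KO Ctrl with DESeq2 (0.040), limma (0.041), median-ratio scaling (0.040), all 16 libraries (0.058), a replicate block (0.051), its 4 libraries (0.065), without both (0.0079) and without all 3 (0.46). So did Mettl3 KO against WT without both or all 3 (soma KCl 0.64 and 0.66, neurite KCl 0.49 and 0.49) and with a replicate block (neurite Ctrl −0.13), and the genotype difference of the KCl response (soma 0.35 without all 3, neurites 0.18 and 0.17). The cause was not tested. Of the 4 Arc sites, 0 had 5% editing or more. The mean of Arc in WT soma Ctrl was 14.8 CPM when scaled by total counts.

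The replicate block gave 7.10 and 6.67 for the KCl response in WT soma and neurites and changed no call, and without terms for inserts the KCl change of enrichment in WT was −0.45 (p 0.240 by edgeR). Crossing the numbers of WT Ctrl, also chosen after seeing the data, gave 3057 calls of neurite enrichment against 2716 with the block. Over all genes, 1581 calls in WT soma became 332 with all 16 libraries and 955 at a mean count of at least 100. For WT neurites 1147 became 254 and 722, and 1761 with no filter. The 3133 and 2213 calls of WT neurite enrichment became 0 with all 16 libraries, and the 779 of its change became 1457 with no filter, 498 with DESeq2, 425 at a mean count of at least 100, 285 with all 16 libraries and 0 by adjusted p. With 2 libraries in a group, the spread of a group rests on 1 difference, and the spread of Mettl3 KO limits what its comparisons can show.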
